A study of Rattus norvegicus with 17 samples.

Results

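The sodium pump genes described here are 7 of the 32883 gene rows counted in single sensory neurons of the rat: the beta subunits Atp1b1, Atp1b2 and Atp1b3, and the FXYD regulators Fxyd2, Fxyd5, Fxyd6 and Fxyd7. They were chosen by name, with differences in Atp1b1 and Fxyd7 between neuron classes of these same cells already known. Their levels and shares across groups of neurons are therefore given first as a description. The shares are what the genes were chosen to show, and the levels tested below make up those shares. A test of any of the 7, Fxyd2 included, is therefore not independent evidence of its direction. All 7 had enough counts to be tested.

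The sodium pump (Na,K-ATPase) uses ATP to carry sodium out of the cell and potassium in, and so restores the ion gradients on which action potentials draw. A catalytic alpha subunit does the transport, a glycosylated beta subunit is needed for it to fold and reach the plasma membrane, and small single-span FXYD proteins bind to the complex and tune its affinity for the ions. Neurons differ in which beta subunit and which FXYD protein they make, and Fxyd2 is known in the dorsal root ganglion as a gene of small sensory neurons.

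Neurons came from the bilateral L4 and L5 dorsal root ganglia of adult naive male Sprague Dawley rats, which carried no transgene or injury in the labels. Single neurons were taken up with a mouth pipette, and their RNA was read with a Smart-seq2 variant that tags every captured 3' end with a unique molecular identifier (UMI). The labels list 17 batches of pooled cells as 1 group, and they describe both 15 min and 72 h of plating without saying which batch had which, so plating time cannot be told apart from batch. The labels tie no batch to an animal, so the p-values below measure the spread between batch sums, which may be technical.

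One of the 17 batches, batch 21, was a copy of batch 20 and was left out, which left 1040 cells. A minimum of 2000 genes per cell left 967 of them, with 4307 to 1514406 UMIs each. All 10 pan-neuronal genes listed had UMIs in each group of neurons compared. A summed level of 18 glial genes had medians between 319 and 662 CPM (a gene's UMIs scaled to a common total) over those groups.

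Neurons were grouped by gates: a cell passed a gate with at least 30 CPM and at least 3 UMIs of each of its genes. The gates were Sst and Nppb (peptides of itch neurons), Trpm8 (the cold-activated channel), Clmp (an adhesion molecule of cell junctions), Th (tyrosine hydroxylase), Ntsr1 and Chrna3 (a neurotensin receptor and a nicotinic receptor subunit), Gzmbl3 and Lpar3 (a granzyme-like gene and a lysophosphatidic acid receptor), Nmu and Lad1 (neuromedin U and ladinin), and Pvalb and Vsnl1 (calcium-binding proteins). In all, 448 cells passed 1 gate, 443 passed none and 76 passed several and were set aside. UMIs were summed over the cells of 1 gate in 1 batch where there were at least 2, and gates with at least 3 such sums were kept. This gave 66 sums of 419 cells: 15 for Clmp, 14 for Sst+Nppb, 12 for Ntsr1+Chrna3, 11 for Gzmbl3+Lpar3, 6 for Trpm8, 5 for Th and 3 for Nmu+Lad1. The Pvalb+Vsnl1 gate fell short of 3 sums, and its cells are described singly.

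Among the beta subunits, Atp1b3, a widely expressed form, was the even one. Its mean level lay between 353 ± 53.4 CPM in Clmp sums (SD, n = 15) and 433 ± 50.7 CPM in Gzmbl3+Lpar3 sums (SD, n = 11). Clmp sums ran from 278.5 to 472 CPM with a median of 331, and Gzmbl3+Lpar3 sums from 352 to 515 CPM with a median of 427. The other 5 gates had means of 366.5 to 417.5 CPM, and the ranges of all 7 gates overlapped. Trpm8 sums spread most, from 156 to 599 CPM. Over all kept cells Atp1b3 stood at 382 CPM, and 938 of 967 cells held at least 1 UMI of it. The counts are of 3' ends, 1 UMI for each captured end, so levels of different genes are compared without scaling by length.

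Atp1b3 is the beta form captured in nearly every cell and Atp1b2 the one captured in few, and the bases before their start sites are shown to set these extremes side by side. Both runs are RefSeq promoters of the GRCr8 build, 250 bases up to the start site, 5′ to 3′ on the minus strand, at chr8:105821152-105821401 for Atp1b3 and chr10:54823709-54823958 for Atp1b2. Capitals mark the GC box GGGCGG, the CCAAT box and the TATA box TATAAA, each searched on both strands, so that some capitals are the reverse complement of these letters. No marked match overlapped another.
Atp1b3: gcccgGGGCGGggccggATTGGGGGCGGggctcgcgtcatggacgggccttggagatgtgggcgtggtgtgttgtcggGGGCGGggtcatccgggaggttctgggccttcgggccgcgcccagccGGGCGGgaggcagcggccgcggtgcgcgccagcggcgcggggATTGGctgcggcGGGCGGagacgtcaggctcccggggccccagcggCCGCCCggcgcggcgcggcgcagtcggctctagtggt
Atp1b2: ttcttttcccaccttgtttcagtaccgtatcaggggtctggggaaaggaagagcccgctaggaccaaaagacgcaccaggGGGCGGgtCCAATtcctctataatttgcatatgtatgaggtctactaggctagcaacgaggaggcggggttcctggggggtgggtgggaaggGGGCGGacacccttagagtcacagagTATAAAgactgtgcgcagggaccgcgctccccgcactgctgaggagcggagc

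The Atp1b3 run was 79.6% G and C and held 6 GC boxes and 2 CCAAT boxes. In the Atp1b2 run, 58.0% of bases were G or C, with 2 GC boxes, 1 CCAAT box and 1 TATA box. Of the 33469 RefSeq promoters searched at the same length, 30.5% held a GC box, 34.0% a CCAAT box and 12.9% a TATA box, and the median content of G and C was 51.2%. These matches describe the letters and no factor's binding was measured. Entries were also found for Fxyd5 and Fxyd6, and none for Atp1b1, Fxyd2 or Fxyd7.

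Atp1b1 was the beta subunit that varied. Trpm8 sums had a mean of 547 ± 571 CPM (SD, n = 6) and Clmp sums 239 ± 90.9 CPM (SD, n = 15). Means were lower in Sst+Nppb at 51.9 ± 82.9 CPM (n = 14), Th at 41.6 ± 39.9 (n = 5), Ntsr1+Chrna3 at 20.0 ± 17.9 (n = 12), Nmu+Lad1 at 14.1 ± 9.12 (n = 3), and lowest in Gzmbl3+Lpar3 at 7.03 ± 3.43 CPM (n = 11). Leaving out batch 32 lowered the Sst+Nppb mean to 32.4 CPM, leaving out batch 33 the Th mean to 25.2 CPM and leaving out batch 26 the Nmu+Lad1 mean to 9.10 CPM. In that order, Trpm8 and Clmp sums overlapped, and so did each neighbouring pair below Clmp.

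Atp1b1 in Clmp sums ranged from 111 to 436 CPM with a median of 218. In Gzmbl3+Lpar3 sums it ranged from 1.04 to 13.2 CPM with a median of 6.84. The lowest Clmp sum thus lay above the highest sum of Th (107.0 CPM), Ntsr1+Chrna3 (57.1), Nmu+Lad1 (24.1) and Gzmbl3+Lpar3. Sst+Nppb sums ran from 0 to 306 CPM with a median of 22.4, and those of batches 32 and 34, at 306 and 156 CPM, were the 2 that reached into the Clmp range.

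Trpm8 sums fell apart within their own gate. Atp1b1 was at 1262, 1241, 467 and 275 CPM in batches 31, 20, 28-1 and 30, and at 34.6 and 2.42 CPM in batches 25 and 24. The last 2 sums lay at the level of the gates that were low in Atp1b1, and each Trpm8 sum held 2 or 3 cells. The value of batch 28-1 rested on 15 UMIs of Atp1b1 in a sum of 32095 UMIs.

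Atp1b2, also called AMOG and best known as an adhesion molecule of glia, was scarce. It had 408 UMIs in all kept cells, in 82 of 967 cells (8.48%, exact Clopper-Pearson 95% interval 6.80 to 10.4%, which covers counting error alone). Mean levels were 3.61 ± 5.20 CPM in Clmp sums (SD, n = 15) and 3.86 ± 3.81 CPM in Th sums (n = 5), and under 0.5 CPM in the other 5 gates. In Clmp sums it ranged from 0 to 19.9 CPM with a median of 1.59, and the highest value was that of batch 32. Without batch 25 the Th mean was 2.57 CPM. All 3 Nmu+Lad1 sums and 5 of the 6 Trpm8 sums were at 0. Of the 18 glial genes, 17 had UMIs in Clmp sums, with a summed level of 331 to 801 CPM and Kcnj10 at 0, and 14 had UMIs in Th sums, with 367 to 741 CPM. The median summed level was 597 CPM in Clmp and 453 CPM in Th sums. In the other gates it was 319 (Trpm8), 448 (Sst+Nppb), 449 (Nmu+Lad1), 489 (Ntsr1+Chrna3) and 661.5 CPM (Gzmbl3+Lpar3). Medians over sums do not show whether the cells with Atp1b2 were also those with glial RNA. A link between them was not tested.

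**Figure D1:**
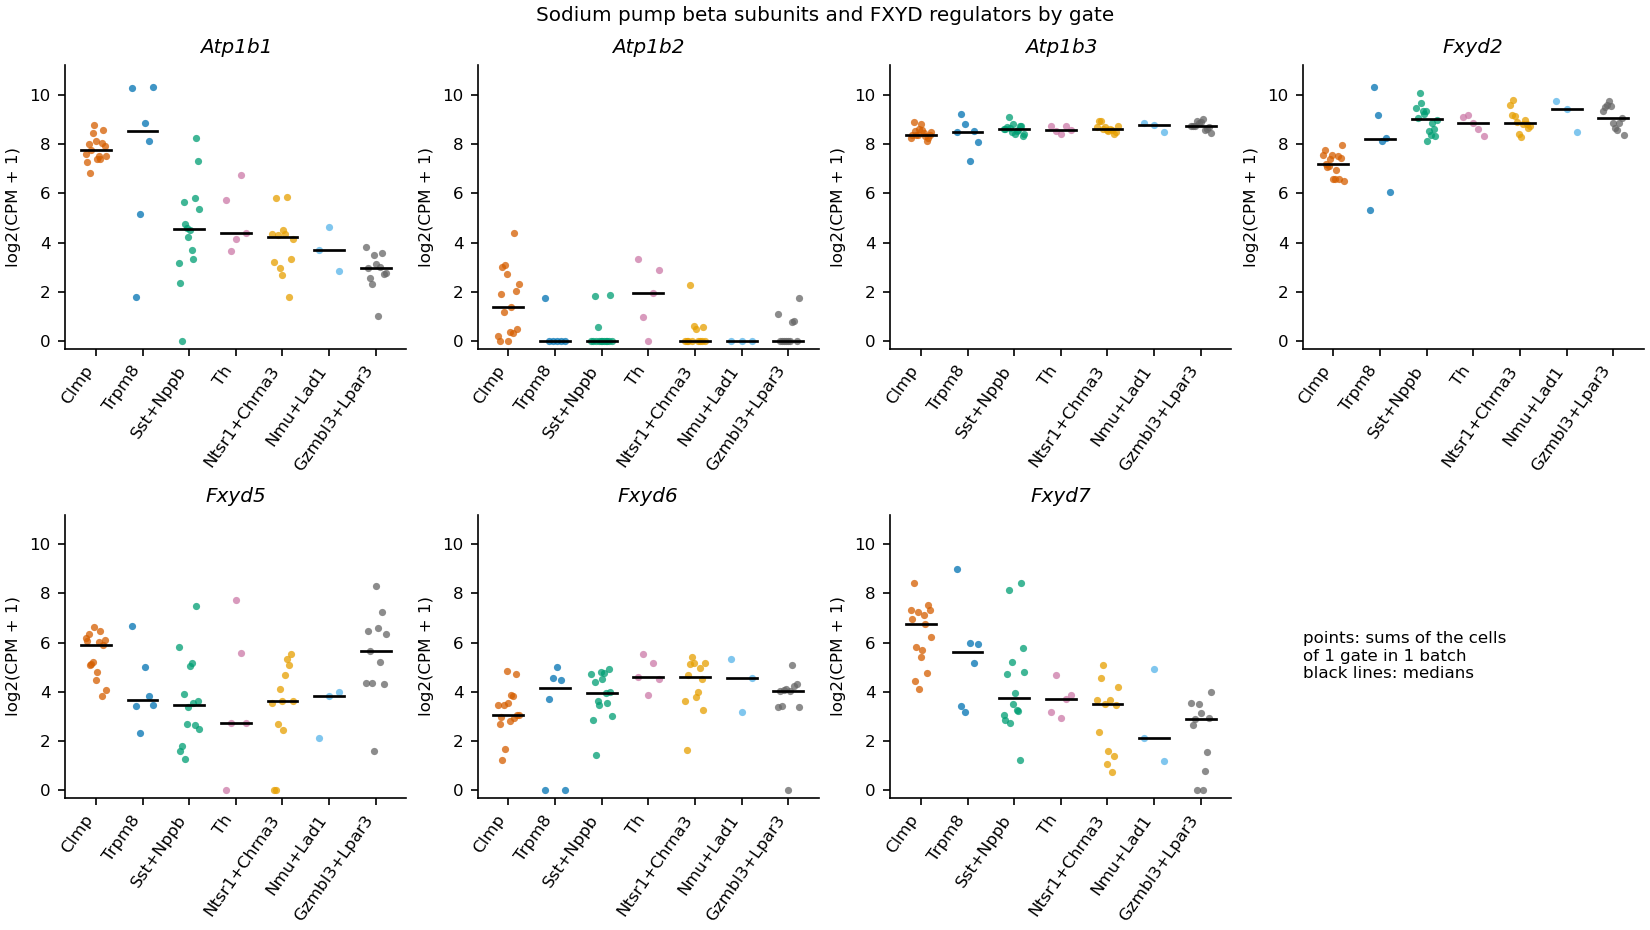
Level of each gene in log2(CPM + 1), 1 point for the summed cells of 1 gate in 1 batch, with the gate on the horizontal axis and the median as a black line. Atp1b3 stays near the same height in all 7 gates, while Atp1b1 and Fxyd7 are high in Clmp sums and low in Gzmbl3+Lpar3 sums and Fxyd2 is lowest in Clmp sums at the median.

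Among the FXYD regulators, Fxyd2, the gamma subunit of the pump known from kidney, had the highest mean of the 4 in all 7 gates. Means were 634 ± 252 CPM in Nmu+Lad1 (SD, n = 3), 575 ± 181 in Gzmbl3+Lpar3 (n = 11), 548.5 ± 221 in Sst+Nppb (n = 14), 512 ± 165 in Ntsr1+Chrna3 (n = 12) and 460 ± 105.5 in Th sums (n = 5). Those 5 ranges overlapped. Clmp sums were lower, at 152 ± 48.9 CPM (n = 15), from 89.8 to 251.5 with a median of 146. Every Clmp sum lay below the lowest sum of those 5 gates, which was 279 CPM in Sst+Nppb. Trpm8 sums spanned both levels, from 39.4 to 1278 CPM with a median of 291, and the 2 with the least Atp1b1, batches 24 and 25, had the most Fxyd2, at 1278 and 573.5 CPM.

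Fxyd7, a regulator best known from brain neurons, had its highest means in the Clmp and Trpm8 gates. They were 110 ± 85.9 CPM in Clmp sums (SD, n = 15) and 114 ± 193.5 CPM in Trpm8 sums (n = 6), the latter set by batch 20: without it the Trpm8 mean was 35.2 CPM, below that of Sst+Nppb. Clmp sums ran from 16.1 to 343 CPM with a median of 106, and Gzmbl3+Lpar3 sums from 0 to 15.1 CPM with a median of 6.46. These 2 ranges did not overlap, though 15.1 and 16.1 CPM lie close. Ntsr1+Chrna3, Nmu+Lad1 and Th sums had means of 10.6, 11.4 and 13.1 CPM, and without batch 26 the Nmu+Lad1 mean was 2.33 CPM.

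Fxyd7 in Sst+Nppb sums had a mean of 58.8 ± 107.6 CPM (n = 14), which came from few cells. Sums of batches 32 and 24 stood at 339 and 279 CPM, and the other 12 at 1.33 to 54.2 CPM, and without batch 32 the mean was 37.2 CPM. Of the 89 cells of the gate, 5 had Fxyd7 at 200 CPM or more, a level chosen after the values were seen. The highest, in batch 24, had 4318 CPM of Fxyd7 and 743 CPM of Atp1b1. Its Sst and Nppb were both at 82.5 CPM, and its Fxyd2, at 137.5 CPM, was below the gate's cell median of 489 CPM.

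Fxyd5 (dysadherin), which is known to weaken cell adhesion, had no common level within gates. Means were 79.2 ± 88.9 CPM in Gzmbl3+Lpar3 (SD, n = 11), 54.3 ± 90.7 in Th (n = 5), 51.6 ± 27.3 in Clmp (n = 15), 28.4 ± 37.3 in Trpm8 (n = 6), 26.3 ± 46.9 in Sst+Nppb (n = 14), 16.8 ± 15.3 in Ntsr1+Chrna3 (n = 12) and 10.6 ± 6.30 in Nmu+Lad1 (n = 3). Gzmbl3+Lpar3 sums alone ran from 2.04 CPM in batch 26 to 313 CPM in batch 27, with a median of 50.0. The order of these means rested partly on single batches: the Th mean was 14.6 CPM without batch 31, the Trpm8 mean 13.7 without batch 20 and the Sst+Nppb mean 14.5 without batch 32. All 7 ranges overlapped.

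Fxyd6 (phosphohippolin), a regulator found in brain and sensory neurons, was low throughout. Its means ran from 10.3 ± 7.54 CPM in Clmp sums (SD, n = 15) to 27.9 ± 12.6 CPM in Th sums (n = 5). Clmp sums ran from 1.36 to 28.0 CPM with a median of 7.45, inside the range of the other gates.

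As shares of the UMIs of the 3 beta genes, Atp1b1 took 39.1% ± 8.96 in Clmp sums (SD, n = 15) and 47.5% ± 36.6 in Trpm8 sums (n = 6). Its share was 9.64% ± 12.3 in Sst+Nppb, 8.71% ± 6.96 in Th, 4.51% ± 3.66 in Ntsr1+Chrna3, 3.16% ± 1.82 in Nmu+Lad1 and 1.64% ± 0.808 in Gzmbl3+Lpar3 sums. Atp1b3 made up nearly all of the remainder, for example 60.3% ± 9.20 in Clmp and 98.2% ± 0.903 in Gzmbl3+Lpar3 sums. Atp1b2 stayed under 1% on average in every gate.

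Among the 4 FXYD genes, Fxyd2 took between 83.7% ± 10.8 (Th, n = 5) and 92.8% ± 2.33 (Nmu+Lad1, n = 3) in the gates other than Clmp and Trpm8. In Clmp sums Fxyd2 took 50.2% ± 11.5, Fxyd7 30.8% ± 13.6, Fxyd5 15.5% ± 5.36 and Fxyd6 3.48% ± 2.29 (SD, n = 15). The Fxyd7 share ran from 4.92 to 59.5% between Clmp sums, against 0 to 3.48% in Gzmbl3+Lpar3 sums, where its mean was 0.944% ± 0.997 (n = 11). Trpm8 sums averaged 66.1% ± 34.5 Fxyd2 and 24.9% ± 30.6 Fxyd7 (n = 6), and the Fxyd7 share was 14.3% without batch 20. These shares are what the genes were chosen to show, so no test is given for them.

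**Figure D2:**
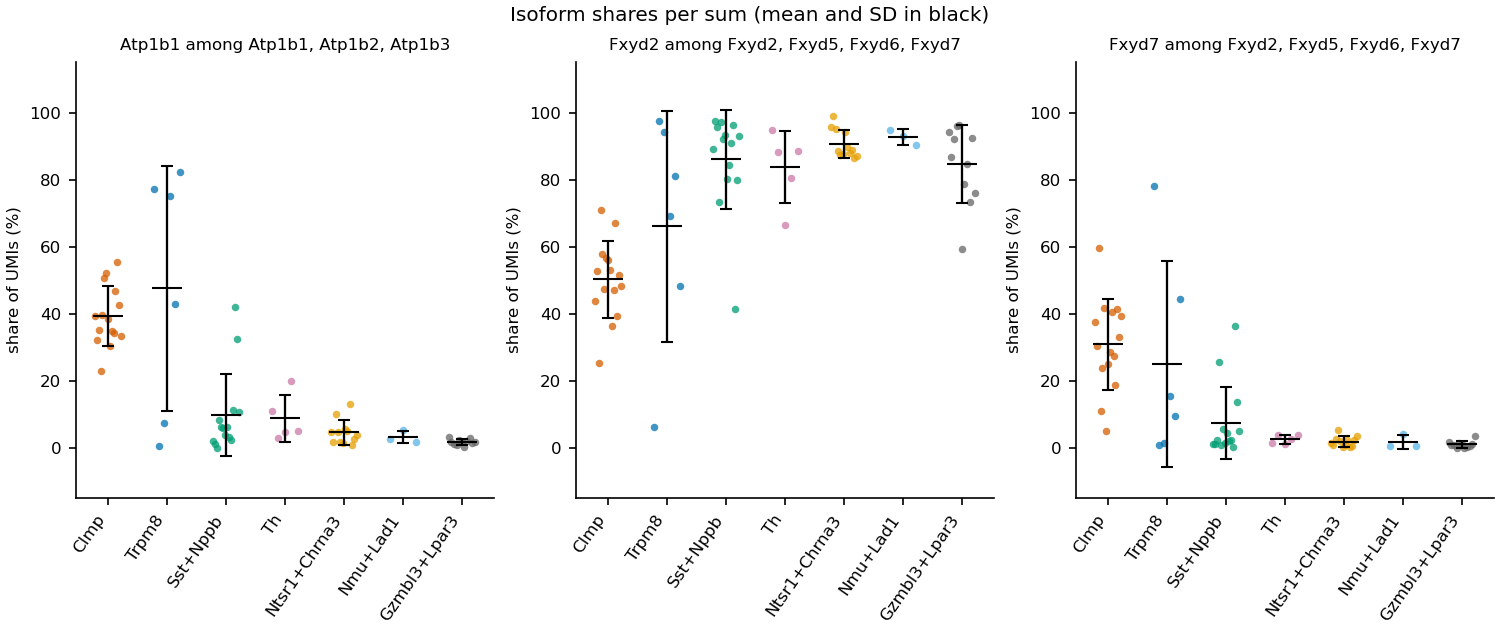
Share of UMIs in percent, 1 point for each sum with the mean and SD in black: Atp1b1 among the 3 beta genes, and Fxyd2 and Fxyd7 among the 4 FXYD genes. Clmp sums average 39.1% Atp1b1 and 30.8% Fxyd7, and the Trpm8 sums are spread over nearly the whole scale.

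Each gate was then compared with the mean of the other 6 in 1 fit over the 66 sums, with gate and batch as terms (edgeR quasi-likelihood F-test, Benjamini-Hochberg adjustment, threshold 0.05). The adjustment ran over the 12294 genes counted here as tested together with the 13 gate genes. The 7 comparisons share their sums. Of the 49 member tests, 6 were called higher and 4 lower. In the Clmp gate 3 of 7 were higher and 2 lower, where 10.5% of all genes tested were called (6.62% higher, 3.88% lower). In the Gzmbl3+Lpar3 gate 2 were higher and 2 lower, where 17.1% of all genes were called (10.1% higher, 7.06% lower). The Trpm8 gate had 1 higher, with 1.11% of all genes called (0.561% higher, 0.553% lower). None of the 7 was called by edgeR in the other gates, where 7.51% (Sst+Nppb), 1.53% (Ntsr1+Chrna3), 0.911% (Nmu+Lad1) and 0.114% (Th) of all genes were. In those 4 gates, 5 of 28 edgeR tests had an unadjusted p under 0.05, and DESeq2 called 0 as well. The share of all genes with such an unadjusted p is not given here, so the 5 are not read as a result about the members. The median log2 fold change of the 7 was 0.97 in the Clmp gate, against 0.09 over all genes tested, and 0.12 against 0.02 in the Gzmbl3+Lpar3 gate.

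For Clmp, Atp1b1 was higher by 2.91 ± 0.37 on the log2 scale (SE, edgeR adjusted p = 2.03e-08), in 15 of 15 batches. Fxyd7 was higher by 2.81 ± 0.42 (edgeR adjusted p = 1.32e-06), in 14 of 15 batches. Fxyd2 fell by 1.57 ± 0.18 (edgeR adjusted p = 1.49e-09) and was lower in 15 of 15 batches. These 3 calls held under all 27 other settings and left-out batches tried. Fxyd6 was lower, with a log2 fold change of -1.13 ± 0.34 (edgeR adjusted p = 0.0189), in 12 of 15 batches, and this call was lost without batch 25 (-0.87, edgeR adjusted p = 0.122). Atp1b2 was higher by 2.29 ± 0.77 (edgeR adjusted p = 0.0457), in 10 of 14 batches, from levels under 4 CPM. In 10 settings it no longer had the counts to be tested, among them leaving out batch 20, 27, 32, 33, 34 or 35 and leaving out the cells rich in glial RNA (a summed level of at least 300 CPM of a set of glial genes). Where it could be tested the call was lost under 11 of 17 settings (edgeR or DESeq2 adjusted p of 0.0276 to 0.261 over all 17).

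In the Gzmbl3+Lpar3 gate Atp1b1 and Fxyd7 were lower than in the mean of the others. Atp1b1 had a log2 fold change of -2.86 ± 0.58 (SE, edgeR adjusted p = 0.000267) and was lower in 11 of 11 batches. Fxyd7 had one of -2.55 ± 0.63 (edgeR adjusted p = 0.00257), also lower in 11 of 11, and was past the threshold in 26 of 27 settings, the exception being cells thinned to 30000 UMIs (-3.18, adjusted p = 0.0586). Fxyd5 was higher by 1.57 ± 0.49 (edgeR adjusted p = 0.0182), in 8 of 11 batches, and this was lost without batch 27 (1.21, adjusted p = 0.0935) or batch 35 (1.42, adjusted p = 0.051) and with the gate order described below (1.35, adjusted p = 0.0559). Fxyd2 was higher by 0.51 ± 0.18 (edgeR adjusted p = 0.041), in 10 of 11 batches, and fell short of the threshold in 9 of 27 settings (log2 fold change 0.43 to 0.65 over all 27). These were a gate threshold of 15 CPM (adjusted p = 0.0773), leaving out the cells rich in glial RNA (0.0548), and leaving out any 1 of batches 20, 22, 25, 26, 28-3, 29 and 32, with adjusted p of 0.0528 to 0.101.

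Trpm8 sums had Atp1b1 higher by 3.93 ± 0.57 (SE, edgeR adjusted p = 1.67e-05), in 5 of 6 batches, and it was called in all 24 settings that kept the gate. The fit estimates 1 spread over all gates, and the Trpm8 gate's own spread was wide, as its 6 values show.

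**Figure D3:**
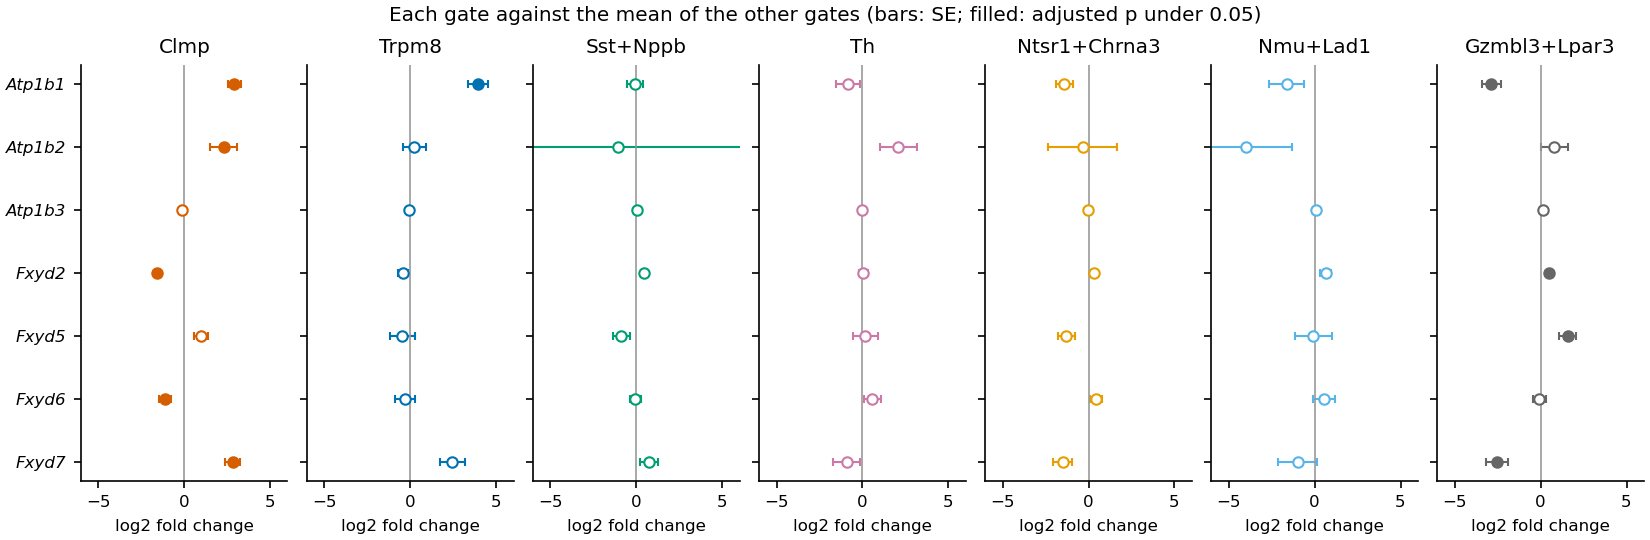
Log2 fold change of each gene in each gate against the mean of the other gates, with its SE as a bar and a filled point where the edgeR adjusted p is under 0.05. Of 49 points 10 are filled, in the Clmp, Trpm8 and Gzmbl3+Lpar3 panels, and 2 bars of the scarce Atp1b2 run past the axis.

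In single cells, a Clmp neuron had more Atp1b1 than Fxyd2 about as often as not: 105 of 202 cells (52.0%, exact 95% interval 44.9 to 59.0%). Such cells were 5 of 89 in Sst+Nppb (5.62%, 1.85 to 12.6%), 1 of 23 in Th, 1 of 17 in Nmu+Lad1, 0 of 51 in Ntsr1+Chrna3 (upper bound 6.98%) and 0 of 46 in Gzmbl3+Lpar3 (upper bound 7.71%). These intervals cover counting error alone and leave out the spread between batches. Median depth was 221366 UMIs per cell in the Clmp gate and 394206 in the Gzmbl3+Lpar3 gate. Of the 443 cells in no gate, 48 (10.8%) had more Atp1b1, at a median depth of 50987 UMIs.

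Clmp neurons were not uniform. Their Atp1b1 had a median of 104.5 CPM, with 7.80 CPM at the lower and 525 CPM at the upper decile, and their Fxyd2 a median of 63.0 CPM with 15.2 and 480.5 CPM at those deciles. In contrast, Atp1b3 ran from 180 to 477 CPM between the same deciles. Just outside the gate, 2 of 10 cells with 15 to 30 CPM of Clmp had more Atp1b1 than Fxyd2, against 14 of 26 with 30 to 60 CPM and 91 of 176 from 60 CPM up.

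Within gates the members were at most weakly related from cell to cell. Rank correlations within batches, over the 15 pairs of the 6 members other than Atp1b2 in each of 4 gates, lay between -0.35 and 0.29. Between Atp1b1 and Fxyd2 the value was 0.02 over 202 Clmp cells and -0.32 over 88 Sst+Nppb cells. Over the 66 sums, after the batch means were subtracted, Atp1b1 went with Fxyd7 (Pearson r = 0.86) and against Fxyd2 (r = -0.80). The cells of a sum share a library and the sums share gates, so these values are descriptions with no p.

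Trpm8 neurons came in both kinds. Of the 17 cells that passed that gate alone, 9 had more Atp1b1 than Fxyd2, with Fxyd2 at 0 to 106 CPM, and the other 8 had Fxyd2 at 351 to 1411 CPM. The shallowest of these 8, with 10609 UMIs, had both Atp1b1 and Atp1b3 at 0. Cells nearest the threshold, with 30 to 60 CPM of Trpm8, had more Atp1b1 in 1 of 6 cases, and those from 60 CPM up in 8 of 11. Another 23 cells passed both Trpm8 and Clmp, and 21 of them (91.3%, exact 95% interval 72.0 to 98.9%, counting error alone) had more Atp1b1. The medians of the 23 cells were 667 CPM of Atp1b1 and 67.4 CPM of Fxyd2.

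When cells that passed Trpm8 or the Pvalb+Vsnl1 gate as well as Clmp were kept in the former, a choice made after the values were seen, the Trpm8 gate had 10 sums of 35 cells. Atp1b1 then had a mean of 555 ± 283.5 CPM (SD, n = 10) and was higher by 4.10 ± 0.36 on the log2 scale (SE, edgeR adjusted p = 6.91e-13). Fxyd7 was higher by 2.82 ± 0.48 (edgeR adjusted p = 8.09e-05) and Fxyd2 had a log2 fold change of -1.22 ± 0.25 (edgeR adjusted p = 0.00138) in that gate, and neither had been called there before. Fxyd2 was then also called in Sst+Nppb sums, higher by 0.61 ± 0.19 (edgeR adjusted p = 0.036).

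**Figure D4:**
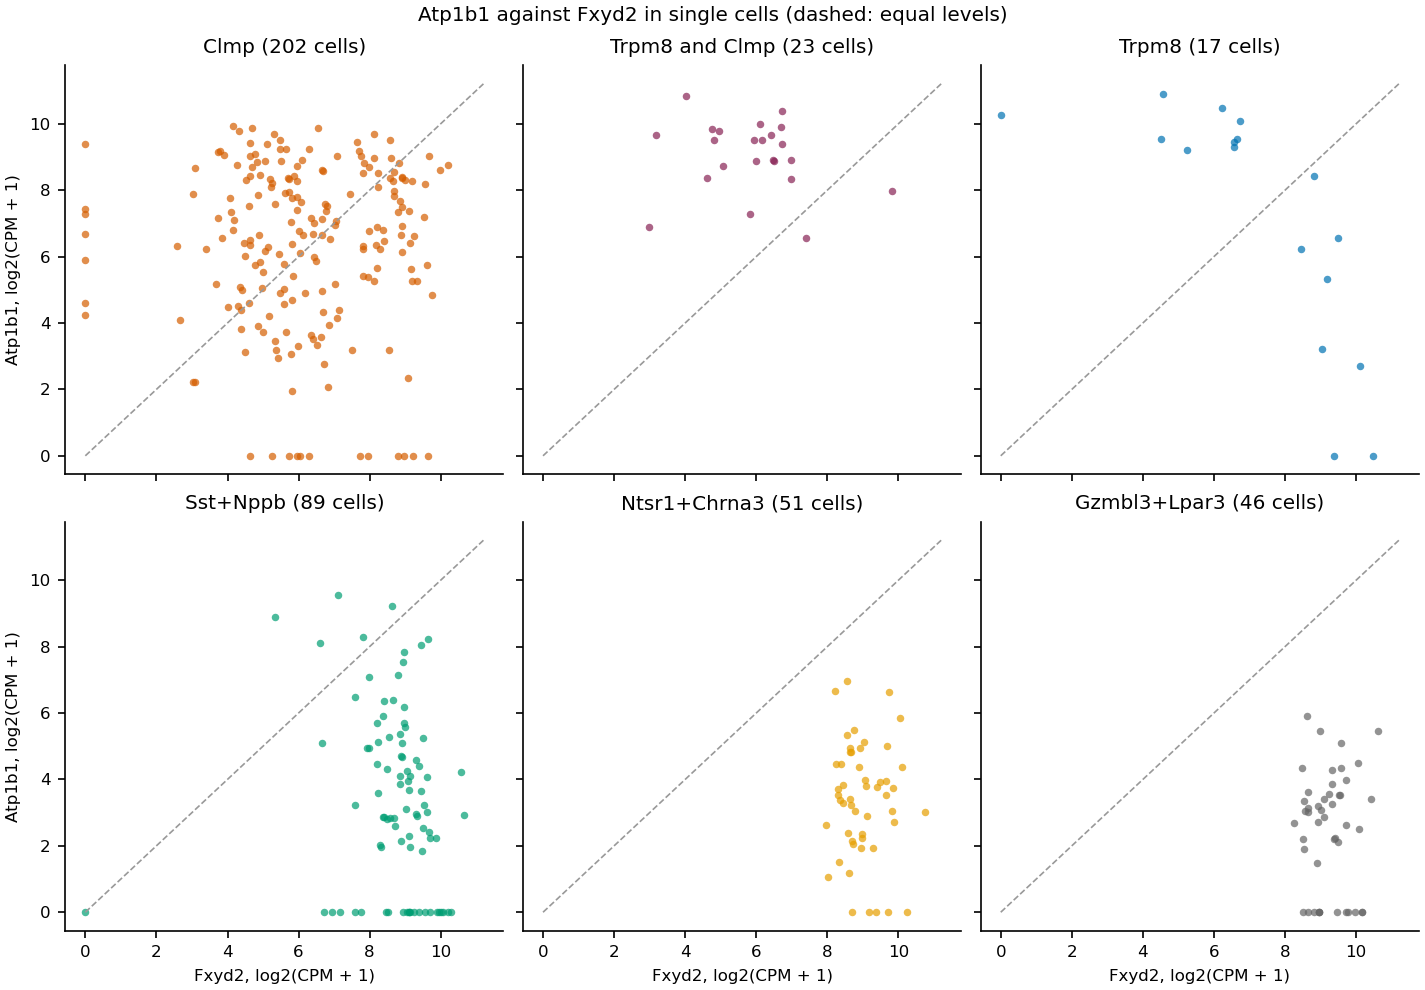
Atp1b1 on the vertical and Fxyd2 on the horizontal axis, both in log2(CPM + 1), 1 point for each cell of the named gates, with a dashed line where the levels are equal. Of the Trpm8 and Clmp cells 21 of 23 lie above the line, Clmp cells lie on both sides of it, and all 51 Ntsr1+Chrna3 and 46 Gzmbl3+Lpar3 cells lie below it.

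Only 8 cells passed the Pvalb+Vsnl1 gate, whose first gene is known from large proprioceptive neurons, and 5 of them passed Clmp too. Atp1b1 was above 100 CPM in all 8, from 105 to 1310 CPM with a median of 846. Their Atp1b3 ran from 109 to 337 CPM with a median of 181, and 7 of the 8 had more Atp1b1 than Atp1b3, with Atp1b1 at 58.3 to 91.2% of the beta UMIs. The exception had 105 CPM of Atp1b1 against 337 CPM of Atp1b3 and was also the cell with the most Fxyd2, 453 CPM. Fxyd7 split the 8 cells: it was at 925, 960, 1456 and 2300 CPM in 4 and at 0 to 54.0 CPM in the other 4. Earlier results on large neurons had named Atp1b1 and Fxyd7, so these values are a description.

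Between batches, with gate as a term, Fxyd2 (edgeR adjusted p = 0.0214) and Fxyd7 (adjusted p = 0.0464) were called among the 7, where 8.35% of all genes were. This test was added after the data were seen, and leaving out 1 batch at a time gave 0 to 3 such members. As an example chosen after its values were seen, Fxyd2 in batch 29 was at 93.7 CPM in Clmp, 314 in Ntsr1+Chrna3, 330 in Sst+Nppb and 378 in Gzmbl3+Lpar3 sums. In batch 20 it was at 188, 758, 711 and 651 CPM. Batch 20 thus lay above batch 29 in each of the 4 gates, and within both batches the Clmp sum was the lowest of the 4.

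Other genes that act on the pump or use its gradient were counted from lists. Of 15 tested partners and regulators of the pump, 2 were called higher in the Clmp gate and 0 lower, where 10.5% of all genes were called. Spock1, a secreted proteoglycan not chiefly known for acting on the pump, was higher by 1.51 ± 0.22 (SE, edgeR adjusted p = 9.84e-07, 77.0 against 28.7 CPM). Fstl1, a secreted protein reported to act on the pump of sensory neurons, was higher by 0.80 ± 0.21 (edgeR adjusted p = 0.00551, 282 against 180 CPM). In the Gzmbl3+Lpar3 gate, with 17.1% of all genes called, 1 of the 15 was, Fstl1, with a log2 fold change of -1.58 ± 0.27 (edgeR adjusted p = 2.00e-05) and 68.9 CPM. Sst+Nppb, with 7.51% of all genes called, had 2 of the 15 higher, the ubiquitin ligase Nedd4l (0.84 ± 0.18, edgeR adjusted p = 0.00112) and the amino acid carrier Slc7a5 (0.48 ± 0.11, edgeR adjusted p = 0.00226), and the second call was lost with a gate threshold of 15 CPM (0.33, adjusted p = 0.165). None of the 15 was called by edgeR in the other 4 gates, where 9 of 60 tests had an unadjusted p under 0.05 and DESeq2 called 0. Without the share of all genes with such an unadjusted p, the 9 are not read as a result about the list. The list's median log2 fold change was -0.11 in the Clmp gate and 0.15 in the Gzmbl3+Lpar3 gate, against 0.09 and 0.02 over all genes tested.

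Of 21 tested transporters that run on the sodium gradient or share its ions, 2 were called higher and 3 lower in the Clmp gate, with a median of 0.10 against 0.09 over all genes. Of all genes, 6.62% were called higher and 3.88% lower there. Slc1a1, a neuronal glutamate carrier, was higher by 1.02 ± 0.27 (SE, edgeR adjusted p = 0.00571). Slc9a9, a sodium-proton exchanger of endosomes, was higher by 0.57 ± 0.19 (edgeR adjusted p = 0.0436), a call lost in 12 of 27 settings. Slc12a7, a potassium-chloride cotransporter, had a log2 fold change of -1.46 ± 0.35 (edgeR adjusted p = 0.00223), and the phosphate carrier Slc20a1 one of -0.56 ± 0.12 (edgeR adjusted p = 0.000779). Slc12a7 was lower in 9 of 15 batches and higher in the other 6, and Slc20a1 was lower in 13 of 15.

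In the Gzmbl3+Lpar3 gate 1 of the 21 was higher and 4 lower, with a median of -0.01 against 0.02 over all genes, of which 10.1% were called higher and 7.06% lower. Slc20a1 was higher by 0.87 ± 0.13 (SE, edgeR adjusted p = 2.19e-06). Slc1a1 was the lowest of the list, with a log2 fold change of -3.28 ± 0.43 (edgeR adjusted p = 9.31e-08, 2.40 against 28.0 CPM), followed by the sodium, calcium and potassium exchanger Slc24a2 with -2.38 ± 0.43 (edgeR adjusted p = 5.48e-05). The Clmp and Gzmbl3+Lpar3 gates are each part of the mean that the other was compared with. Elsewhere, Slc12a7 was higher in Nmu+Lad1 sums (2.28 ± 0.55, edgeR adjusted p = 0.0244, n = 3), a call lost on leaving out any of the 3, batch 25 (adjusted p = 0.254), 26 (0.179) or 29 (0.0557). In Sst+Nppb sums the phosphate carrier Slc20a2 (-1.12 ± 0.32, edgeR adjusted p = 0.0177) and the bicarbonate cotransporter Slc4a4 (-1.09 ± 0.35, edgeR adjusted p = 0.0437) were lower, and the calls were lost in 4 and 10 of 26 settings.

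The genes most like each member were taken by Pearson correlation over the 66 sums with batch means subtracted, among 7165 genes with a mean of at least 30 CPM in 1 gate. For Atp1b1 the first was Fxyd7 (r = 0.86), followed by the acid-sensing channel Asic1 (0.79), the gate gene Clmp (0.78), Scara3 (0.76) and Olfm1 (0.76). For Fxyd7 it was Atp1b1, and those after it included Asic1 (0.75), Olfm1 (0.74) and Hspd1 (0.74). Fxyd2 went most closely with the desmosomal gene Dsp (0.89), Parvb (0.86) and Tmem45b (0.85), and Arhgap10 (0.78) was also among its closest. For Fxyd6 the first was Fxyd2 (0.66), which lies next to it in GRCr8. Atp1b3 went with RT1-CE4 (0.78), Psmd12 (0.74), Tax1bp1 (0.73), Tmbim6 (0.72) and Taldo1 (0.72). Values for Atp1b2 and Fxyd5 were lower, with firsts of 0.62 (Scara3) and 0.56 (Bag3). The highest of 7165 values is high by selection, so these name genes and test nothing.

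Atp1b1 shares bases with another gene, so its counts were set beside that gene's. In GRCr8 the records of Atp1b1 and Nme7 overlap by 183 bases, and no source used here gives the strand setting of the counts. Nme7 had means of 0.893 to 5.43 CPM over the 7 gates, and 4.59 CPM in Clmp sums where Atp1b1 was at 239 CPM. Fxyd7 lies between Fxyd5 and Fxyd1 with 348 and 148 bases between the records. Fxyd1 had means of 3.24 to 14.03 CPM over the gates, and in Clmp sums 11.1 ± 7.73 CPM (SD, n = 15) beside 110 CPM of Fxyd7.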

How the data were processed

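Each file the authors deposited holds UMI counts of genes by cells. The submitters' processing notes name SAMtools, STAR, Subread, featureCounts and UMI-tools and the build Rnor_6.0, with no versions or settings. They were checked to be whole numbers. Batch 21 had counts identical to batch 20 and its 40 labelled cells were not analysed here; all other cells differed from each other. Batch totals ran from 3812280 to 26065847 UMIs.

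Cells with at least 2000 genes were gated (at least 30 CPM and 3 UMIs of each gate gene) and summed per batch and gate (at least 2 cells). Gates with at least 3 sums were fitted in edgeR 4.0.16 (R 4.3.3; quasi-likelihood F-test, gate and batch as terms, TMM factors, filterByExpr at its default minimum of 10 counts). The 13 gate genes were part of the fit and its adjustment and were left out of the counts of genes tested and called. Standard errors were taken as |log2 fold change| / sqrt(F). CPM are plain, shares are of UMIs, and cell correlations are Spearman's after ranking within batches in gates of at least 30 cells. On simulated counts for the Clmp comparison, over 10985 genes, 194 of 195 genes changed by 2 on the log2 scale were recovered with 10 false calls. The simulation had 1 dispersion of 0.15 for all genes, no batch effects and no other differences between gates, and changed only genes with many UMIs. It therefore says nothing about smaller changes, scarce genes or the smaller gates. The named genes are the 7 members in every comparison, with a fold change where called, up to 2 called genes per list, gate and direction, and the 5 genes most correlated with each member; others were chosen after their values were seen. Alternatives were RLE factors, no filter, DESeq2 1.42.0, other gates and cell filters, glia-rich cells left out, cells thinned to 30000 UMIs, each batch left out, and a gate order added later. The members and lists were chosen with earlier results of these data known. RefSeq promoters and gene neighbours are those of GRCr8; the files' build is Rnor_6.0, and its coordinates are not used. Some results are not reported here.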

Additional observations from a re-analysis of the deposited data

Results flagged for a closer look

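Single sums far from the rest of their gate were looked for in gates of 4 to 10 sums, which are Trpm8 (6) and Th (5), by the gap to the nearest sum as a share of the whole range. Of 20 sets of values 4 held such a sum. Chance flags about 1 in 20 sets of normally distributed values, but these sets share sums and some hold many zeros. The 4 can therefore not be set against that rate. Of these, 3 were batch 20 in the Trpm8 gate, a sum of 3 cells. Its Fxyd7 was at 505.6 CPM, against 7.98 to 62.3 CPM in the other 5. Its Fxyd5 was at 102 CPM, against 3.99 to 31.2 CPM. Its Atp1b2 was at 2.32 CPM, which is 1 UMI, against 0 in the other 5, so that any UMI there would have been flagged. The last was Fxyd5 in the Th gate, at 213 CPM in batch 31 against 0 to 47.1 CPM in the other 4.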

How the results depend on the processing

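Of 256 alternative values of the 10 called member fold changes, 231 stayed past the threshold with the same sign and 25 kept the sign but missed it; none changed sign. Atp1b1 in the Clmp, Trpm8 and Gzmbl3+Lpar3 gates and Fxyd7 and Fxyd2 in the Clmp gate stayed called in every alternative that could be fitted. Of 397 values for list genes, 367 stayed called. The 6 members called higher and 4 lower became 11 and 9 with no filter on low counts, and 2 were lower with cells thinned to 30000 UMIs. Leaving out 1 batch gave 4 to 8 higher and 3 to 4 lower.

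Of 489 alternative values of the Atp1b1, Fxyd2 and Fxyd7 shares, 4 moved by at least 1 SD, all of them shares of Atp1b1: to 16.6% in Nmu+Lad1 with cells of several gates placed in their highest gate, to 2.46% in Gzmbl3+Lpar3 with thinned cells, and to 9.06% in Ntsr1+Chrna3 and 18.6% in Th with a gate threshold of 15 CPM.

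Counts of all genes called moved as well. Main counts were 1291 (Clmp), 2106 (Gzmbl3+Lpar3), 923 (Sst+Nppb), 188 (Ntsr1+Chrna3), 137 (Trpm8), 112 (Nmu+Lad1), 14 (Th) and 1027 between batches, with 2 members called between batches. DESeq2 called 199 (Nmu+Lad1), 403 (Ntsr1+Chrna3), 45 (Th), 437 (Trpm8) and 2688 between batches, with 4 members. RLE factors gave 235 for Trpm8 and split the Clmp calls 647 higher to 567 lower, against 814 to 477. No filter gave 363 (Nmu+Lad1), 505 (Ntsr1+Chrna3), 212 (Th), 409 (Trpm8) and 2684 between batches, with 4 members. Thinning, which tests fewer genes, gave 652 (Clmp), 1021 (Gzmbl3+Lpar3), 335 (Sst+Nppb), 26 (Trpm8) and 282 between batches. Placing cells in their highest gate gave 175 (Nmu+Lad1), 285 (Ntsr1+Chrna3), 83 (Th) and 710 (Trpm8). A gate threshold of 15 CPM gave 328 (Nmu+Lad1), 119 (Ntsr1+Chrna3), 518 (Sst+Nppb) and 7 (Th), and 60 CPM gave 72 (Ntsr1+Chrna3), 128 (Th) and 273 between batches; these thresholds left 6 and 5 gates to fit. Sums of at least 3 cells gave 2055 (Clmp) and 6 (Th), leaving out cells rich in glial RNA gave 23 (Th), and keeping Trpm8 and Pvalb+Vsnl1 cells before Clmp, chosen after seeing the data, gave 535 (Trpm8). The members called between batches were 1 with the 15 CPM threshold, with a higher minimum of genes per cell, without glia-rich cells and with that last order. The causes of these changes were not tested.

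Leaving out each batch in turn gave 5 to 295 genes called in Nmu+Lad1 (most changed by batches 24, 25, 26 and 29), 82 to 244 in Ntsr1+Chrna3 (batches 20, 26, 28-3 and 31), 2 to 31 in Th (batches 24, 25, 26, 30 and 31), 30 to 297 in Trpm8 (batches 20, 24, 30 and 31), 539 to 1114 between batches (batch 20) and 0 to 3 members called between batches. Batch is a term of every fit, so gates were compared within batches. The settings were applied to the batch test, the mean levels and the shares of cells after the data were seen.

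Depth limits the scarce genes: Atp1b2, Fxyd6 and much of Fxyd5 rest on few UMIs per sum, and a Trpm8 sum held as few as 32095 UMIs. Gates of 3 to 6 sums borrow their spread from the larger gates. Cells were picked under a microscope, and doublets were not searched for.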
